A study of Homo sapiens with 4 samples.

Results

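The insulin-like growth factor (IGF) axis was described in LAPC4, a human prostate cancer line that responds to androgen, through 10 genes: the binding proteins IGFBP2, IGFBP3, IGFBP4, IGFBP5 and IGFBP6, the receptors IGF1R, IGF2R and INSR, and the receptor substrates IRS1 and IRS2. They are 10 of the 11963 genes with a probe set annotated to no other gene. They were chosen by name, and every probe set annotated to 1 of them was taken, 20 in all. Expression was measured on 4 Affymetrix arrays, 1 for each combination of vector and serum after 72 hours: β-TrCP shRNA in charcoal stripped serum (CSS, the combined treatment), β-TrCP shRNA in fetal calf serum (FCS), control in CSS and control in FCS. FCS and CSS were at 10%, and the medium with FCS held 100 pM methyltrienolone, a synthetic androgen, so that CSS was meant as androgen ablation. The cells all came from 1 line, and the lentiviral shRNA targets both isoforms of β-TrCP, the substrate-recognition subunits of an SCF ubiquitin ligase. The labels give a GFP vector as control, whereas the text of the study describes cells with the inducible shRNA left without doxycycline, and effects of doxycycline or of the vector cannot be told apart here from those of the knockdown. With 1 array per condition, no difference between 2 conditions has a replicate check.

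IGF1 and IGF2 signal through IGF1R, a receptor tyrosine kinase closely related to the insulin receptor INSR, and both receptors pass the signal on by phosphorylating the docking proteins IRS1 and IRS2, which recruit PI3-kinase. The IGFBPs are secreted proteins that bind IGFs, prolong their life in tissue fluid and either withhold them from IGF1R or deliver them to it. In the prostate the IGF axis is known as a growth pathway, and in rodents Igfbp5 is known to rise in the prostate after castration.

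Values are normalized log2 signals. Probe sets that reached a signal of 20 on any array were kept, and lower values were set to that floor, which is 4.32 on the log2 scale. Of the 20 member probe sets 15 were kept, for 9 of the 10 genes, and 10 lay above the floor on all 4 arrays. Both probe sets of IRS2 stayed under the floor, as did 1 each of IGFBP5, IGF1R and INSR. The combined array was unlike the others: its correlation with them over probe sets was 0.934 to 0.935, and theirs with each other was 0.979 to 0.989, as a description, since probe sets share their array. The local spread given beside a change is a robust SD of the log2 ratios among the 1000 probe sets nearest in signal, and is accordingly wider wherever that array enters. FBXW11, a target of the shRNA, had a log2 signal of 4.68 in shRNA cells in CSS and of 5.02 in shRNA cells in FCS, against 8.19 in control cells in CSS and 8.02 in control cells in FCS. The labels of the serum were set against 3 genes that androgen is known to induce. In control cells KLK3 and KLK2 were higher in CSS than in FCS, by 0.73 and 0.70 on the log2 scale, and TMPRSS2 was lower by a log2 change of -0.48. In shRNA cells KLK3 was higher in CSS by 0.34, and KLK2 and TMPRSS2 had changes of -0.48 and -0.14. KLK3 and KLK2 in control cells thus go against a loss of androgen signalling, and the arrays are called below by the serum of their labels only.

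**Figure D1:**
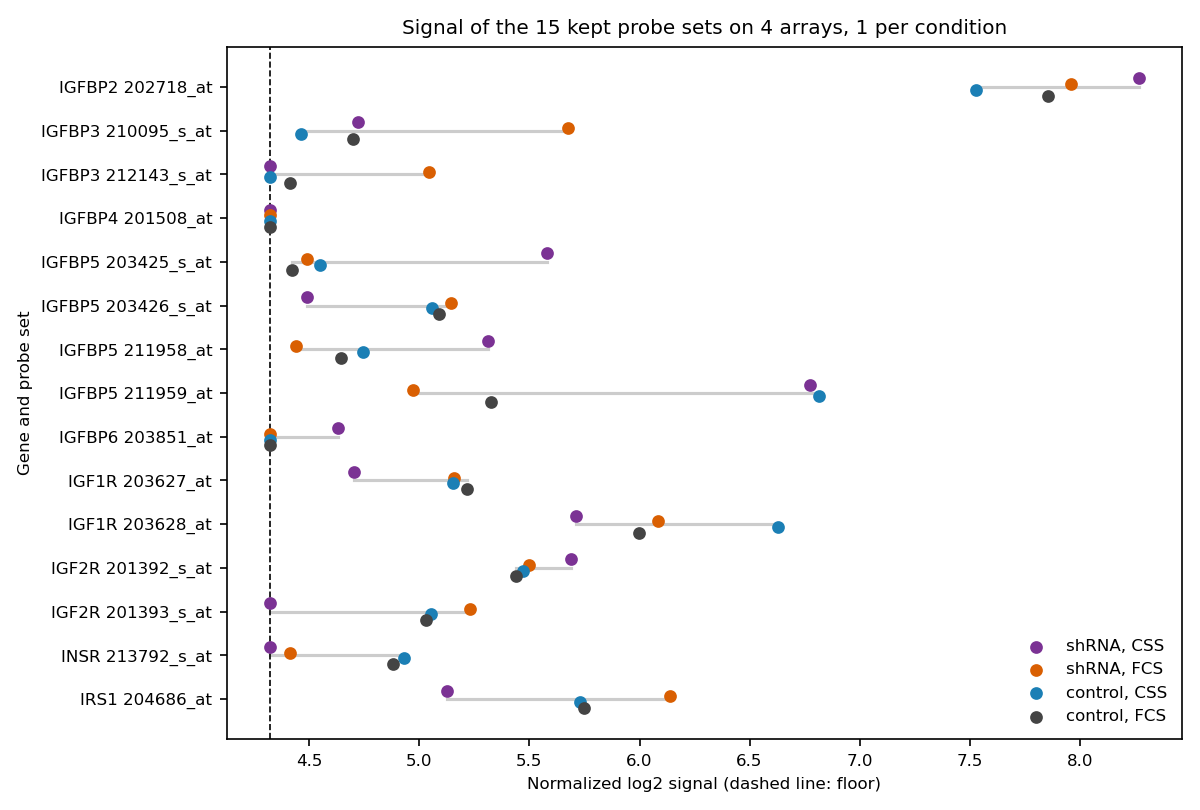
Normalized log2 signal (horizontal axis) of the 15 kept probe sets of the member genes, with 1 point per array and the floor of 4.32 as a dashed line. The shRNA array in CSS is highest for IGFBP2 at 8.27, and the 2 CSS arrays lie apart from the 2 FCS arrays for IGFBP5 211959_at.

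IGFBP5, a binding protein that attaches to extracellular matrix, was higher in CSS in its brightest probe set. That probe set, 211959_at, had a log2 signal of 6.78 in shRNA cells in CSS, 4.97 in shRNA cells in FCS, 6.81 in control cells in CSS and 5.33 in control cells in FCS. Both CSS arrays thus lay above both FCS arrays. In such bulk RNA more cells that express a gene and more RNA per cell cannot be told apart. In control cells CSS gave a 2.81-fold higher signal, a log2 change of 1.49 against a local spread of 0.28. Counting this probe set itself, 3 of 13548 probe sets were as far up. In shRNA cells the difference with CSS was 1.81 on the log2 scale, or 3.50-fold, against a spread of 0.84. In the additive model of serum and shRNA, which leaves 1 residual degree of freedom, the main effect of CSS on 211959_at was 1.65 ± 0.49 (SE), with a limma adjusted p of 0.0362 over 13466 probe sets. Its SE comes from the trend of the variance on signal. The call was lost with limma run without that trend, on the deposited values as they stand and with a floor of 100. That floor lies above both FCS signals of 211959_at, so the change becomes a small bound there. With the shRNA 211959_at differed by -0.36 in FCS, against a local spread of 0.21, and by -0.039 in CSS.

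The other probe sets of IGFBP5 did not follow it in control cells. 203425_s_at had a log2 signal of 5.58 in shRNA cells in CSS, 4.49 in shRNA cells in FCS, 4.55 in control cells in CSS and 4.42 in control cells in FCS. It was high on the combined array alone, where it was 2.23-fold above the control in FCS, at a spread of 0.89 on the log2 scale. 211958_at was also highest on that array, with 5.31 in shRNA cells in CSS, 4.44 in shRNA cells in FCS, 4.74 in control cells in CSS and 4.64 in control cells in FCS. 203426_s_at ran the other way, with 4.49 in shRNA cells in CSS, 5.15 in shRNA cells in FCS, 5.06 in control cells in CSS and 5.09 in control cells in FCS. In control cells 203425_s_at, 211958_at and 203426_s_at differed with CSS by 0.12, 0.099 and -0.036, each within its local spread. In shRNA cells they differed with CSS by 1.09, 0.87 and -0.66, each beyond its spread of 0.97, 0.72 and 0.62. As far in the same direction were 5.74%, 9.22% and 14.6% of all probe sets. In shRNA cells 203425_s_at and 211958_at were thus higher with CSS like 211959_at, and 203426_s_at was lower. The fifth, 203424_s_at, was never kept, its deposited log2 values being 4.17 in shRNA cells in CSS, 3.83 in shRNA cells in FCS, 3.97 in control cells in CSS and 3.97 in control cells in FCS. The difference of IGFBP5 with CSS in control cells rests on 1 of 4 measured probe sets, and their mean change was 0.42. With the combined treatment 3 of the 4 were above the control in FCS and 1 below, with a mean change of 0.67.

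**Figure D2:**
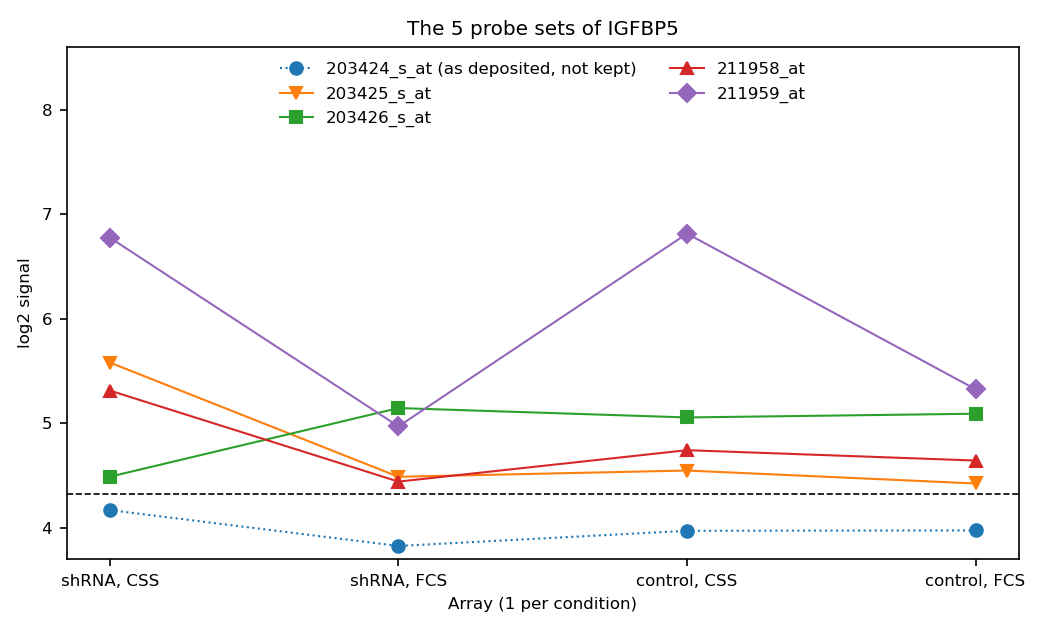
Log2 signal (vertical axis) of the 5 IGFBP5 probe sets on the 4 arrays, 1 per condition, with the floor of 4.32 as a dashed line; the dotted line shows the probe set that was not kept, as deposited. Only 211959_at is high on both CSS arrays, at 6.78 and 6.81, while 203425_s_at and 211958_at are high on the combined array and 203426_s_at is low there.

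IGFBP3, the main carrier of IGFs in serum and a growth-inhibitory protein in many epithelial cells, was higher with β-TrCP shRNA in FCS in both of its probe sets. The log2 signal of 210095_s_at was 4.72 in shRNA cells in CSS, 5.67 in shRNA cells in FCS, 4.46 in control cells in CSS and 4.70 in control cells in FCS. The shRNA array in FCS stood alone, 1.96-fold above the control in FCS, at a log2 change of 0.97 against a local spread of 0.21. As large an increase was found for 0.745% of probe sets. The dimmer 212143_s_at had 5.04 in shRNA cells in FCS and 4.41 in control cells in FCS, a change of 0.63 against a spread of 0.16, and was at the floor on both CSS arrays. In CSS 210095_s_at differed with the shRNA by 0.26, within its spread of 0.35, and the combined treatment differed from the control in FCS by 0.020. In control cells 210095_s_at was lower with CSS, at a log2 change of -0.24, against a spread of 0.15. The main effect of the shRNA on IGFBP3 did not pass in the additive model (0.62 ± 0.33, SE, limma adjusted p = 0.442), which averages the changes in FCS and in CSS.

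IGFBP2, a binding protein that many prostate cancers secrete, had signals far above the floor. They were 8.27 in shRNA cells in CSS, 7.96 in shRNA cells in FCS, 7.53 in control cells in CSS and 7.85 in control cells in FCS. It was lower with CSS in control cells by a log2 change of -0.33, against a spread of 0.30. In CSS it was 1.67-fold higher with the shRNA, a change of 0.74 against a spread of 0.42. As large an increase was found for 12.1% of probe sets. The direction on the combined array depended on the scaling: its change against the control in FCS was 0.41 after quantile normalization and -0.041 with the values as deposited. The difference with the shRNA in CSS likewise came to 0.29 as deposited. IGFBP6, which prefers IGF2, was above the floor on the combined array alone (4.63) and was at least 1.24-fold higher there than on each of the other 3, a log2 difference of 0.31 within the spreads of 0.34 to 0.36. IGFBP4, which is cleaved by the protease PAPPA, was at the floor on all 4 arrays after normalization and has no fold.

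The promoters of IGFBP5, IGFBP3 and IGF1R are shown because these genes had the largest log2 changes with a single treatment among the members. The sequences are the 250 bases before the start of each gene in RefSeq (GRCh38.p14), and capitals mark matches, on either strand, to 5 motifs that were searched: AGAACA, an arm of the androgen response element, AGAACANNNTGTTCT, the full element, CTTTGA, the TCF/LEF core, GTAAACA, a FOXO motif, and GCGTG, the core bound by the aryl hydrocarbon receptor. IGFBP5 lies at chr2:216695550-216695799 on the minus strand, IGFBP3 at chr7:45921273-45921522 on the minus strand and IGF1R at chr15:98648289-98648538 on the plus strand.
IGFBP5: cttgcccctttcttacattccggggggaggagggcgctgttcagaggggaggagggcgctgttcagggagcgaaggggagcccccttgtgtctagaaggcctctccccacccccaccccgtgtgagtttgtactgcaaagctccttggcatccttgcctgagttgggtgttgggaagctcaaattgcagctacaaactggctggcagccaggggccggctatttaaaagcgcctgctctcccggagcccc
IGFBP3: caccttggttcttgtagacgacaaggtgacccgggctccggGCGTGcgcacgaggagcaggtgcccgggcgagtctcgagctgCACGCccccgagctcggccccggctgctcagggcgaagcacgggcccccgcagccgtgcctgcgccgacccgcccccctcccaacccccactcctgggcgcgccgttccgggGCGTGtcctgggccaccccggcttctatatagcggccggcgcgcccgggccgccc
IGF1R: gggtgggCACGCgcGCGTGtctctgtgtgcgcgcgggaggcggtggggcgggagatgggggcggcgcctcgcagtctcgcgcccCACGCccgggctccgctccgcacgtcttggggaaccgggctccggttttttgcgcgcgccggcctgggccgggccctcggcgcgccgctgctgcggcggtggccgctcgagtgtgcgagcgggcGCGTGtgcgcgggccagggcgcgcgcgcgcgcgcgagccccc
The promoter of IGFBP5 held none of the 5 motifs in this window, that of IGFBP3 held 3 matches to GCGTG and that of IGF1R held 4. GCGTG was present in 32.2% of 35116 RefSeq promoters and in 4 of the 12 promoters of the members, IGFBP2 having 3 in the table. The promoters of IGFBP3 and IGF1R are 76.0% and 81.2% G and C, against a median of 58.0% over all promoters and 61.2% for IGFBP5. AGAACA was present in 12.4% of all promoters and in 2 of the members, both of them starts of IGFBP2. GTAAACA was present in 2.98% and in that of IGFBP6, CTTTGA in 11.2% and in no member, and the full androgen response element in 1 promoter of all and in no member. These matches are descriptions of letters and not of binding. In RefSeq's order of protein-coding genes IGFBP5 is the neighbour of IGFBP2 on chromosome 2, and with CSS in control cells their brightest probe sets differed by 1.49 and -0.33.

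IGF1R, the receptor of IGF1 and IGF2, was highest in control cells in CSS. The log2 signal of 203628_at was 5.71 in shRNA cells in CSS, 6.09 in shRNA cells in FCS, 6.63 in control cells in CSS and 6.00 in control cells in FCS. CSS in control cells gave a 1.55-fold higher signal, a log2 change of 0.63 against a spread of 0.28, and 1.65% of probe sets were as far up. In shRNA cells the change with CSS was -0.38, within a spread of 0.83. In CSS the shRNA array was 1.89-fold lower than the control array, a change of -0.92 against a spread of 0.73. As far down were 8.20% of probe sets. The second probe set, 203627_at, had 4.70 in shRNA cells in CSS, 5.16 in shRNA cells in FCS, 5.15 in control cells in CSS and 5.22 in control cells in FCS. It was lowest on the combined array as well, but differed with CSS in control cells by -0.064, so that the higher signal of IGF1R there also rests on 1 probe set. When normalization was limited to probe sets reaching 100 on an array, the combined change of 203628_at against the control in FCS was 0.35 in place of -0.29.

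INSR, the insulin receptor, was lower with the shRNA in both sera in its single measured probe set. Its log2 signal was at the floor of 4.32 in shRNA cells in CSS, 4.41 in shRNA cells in FCS, 4.93 in control cells in CSS and 4.88 in control cells in FCS. Both shRNA arrays thus lay under both control arrays. In FCS the change was -0.46 against a spread of 0.16, a 1.38-fold lower signal, and in CSS the shRNA array was at least 1.52-fold lower. As far down were 5.68% of probe sets in FCS and, at that bound, 16.1% in CSS. The main effect of the shRNA on INSR was -0.54 ± 0.25 (SE), with an unadjusted p of 0.0350 and a limma adjusted p of 0.328. With CSS in control cells it differed by 0.051. IGF2R, which clears IGF2 and sorts lysosomal enzymes, had nearly level signals in its brighter probe set, 201392_s_at, with 5.69 in shRNA cells in CSS, 5.50 in shRNA cells in FCS, 5.47 in control cells in CSS and 5.44 in control cells in FCS. All 5 of its changes were within the local spread. Its other probe set, 201393_s_at, was at the floor on the combined array and at 5.23 in shRNA cells in FCS, 5.05 in control cells in CSS and 5.03 in control cells in FCS. It was at least 1.63-fold lower with the combined treatment than in the control in FCS, so that the 2 probe sets of IGF2R disagreed on that array.

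IRS1, the docking protein through which IGF1R and INSR reach PI3-kinase, was highest with the shRNA in FCS and lowest on the combined array. Its log2 signal was 5.13 in shRNA cells in CSS, 6.14 in shRNA cells in FCS, 5.73 in control cells in CSS and 5.75 in control cells in FCS. With the shRNA in FCS it was 1.31-fold higher, a change of 0.39 against a spread of 0.26. In shRNA cells it was 2.02-fold lower in CSS than in FCS, a change of -1.01 against a spread of 0.94. As far down were 6.78% of probe sets. IRS1 changed by -0.88 there when the arrays were set to a common median. With CSS in control cells it differed by -0.020. IRS2 stayed under the floor throughout, with deposited log2 values between 3.61 and 4.15 in its 2 probe sets.

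**Figure D3:**
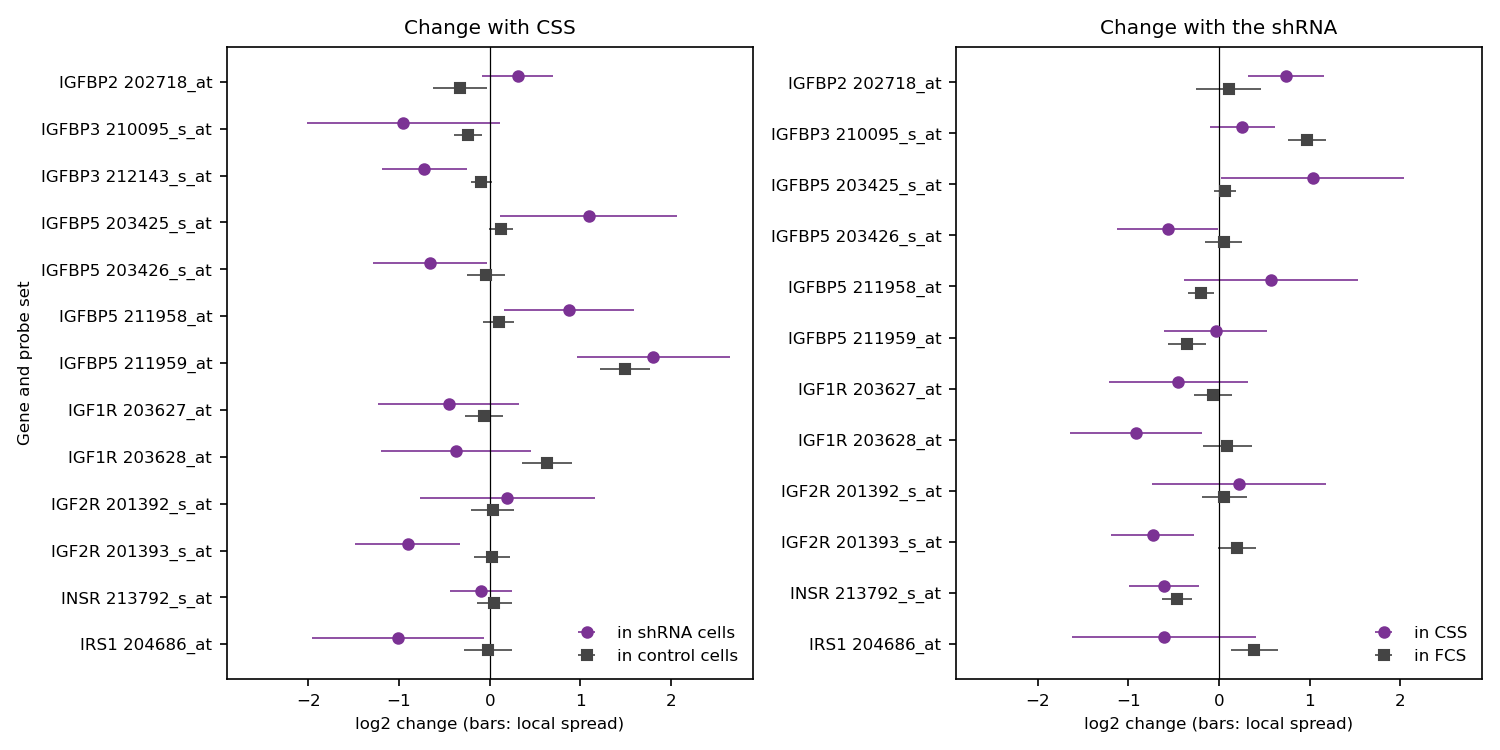
Log2 change with CSS (left panel) in shRNA cells and in control cells, and with the shRNA (right panel) in CSS and in FCS, for each member probe set with a value in both; 1 array per condition, and bars give the local spread. IGFBP3 212143_s_at with CSS, and IGF2R 201393_s_at and INSR in shRNA cells in CSS, have a value at the floor and show a bound. IGFBP5 211959_at is the only probe set whose change with CSS exceeds the spread upward in both shRNA cells (1.81) and control cells (1.49), and INSR the only one whose change with the shRNA exceeds it downward in both CSS and FCS.

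Counted over the members, 2-fold changes were few and were read against those of all probe sets. With the combined treatment 2 of 14 member probe sets with a value were at least 2-fold higher than in the control in FCS, both of IGFBP5, and none was 2-fold lower, where 7.09% of all probe sets were higher and 7.13% lower by as much. With the values as deposited these backgrounds were 3.78% and 11.8%. With the shRNA in FCS none of 13 member probe sets passed 2-fold, against backgrounds of 0.693% higher and 0.391% lower. With CSS in control cells 1 of 13 was 2-fold higher, IGFBP5 211959_at, and none lower, against 0.162% and 0.258%. In CSS the shRNA gave 1 of 13 higher, IGFBP5 203425_s_at, and none lower, against 7.12% and 6.81%. In shRNA cells CSS gave 2 of 14 higher, both of IGFBP5, and 1 lower, IRS1, against 6.99% in either direction. These comparisons share arrays and are not independent of each other.

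The members lay on both sides of 0 in every comparison. Their median log2 change was -0.036 with the combined treatment, 0.064 with the shRNA in FCS and 0.025 with CSS in control cells, and over all probe sets the medians were between -0.0027 and 0.0055. With the shRNA in FCS 9 member probe sets were higher and 4 lower, and with CSS in control cells 7 were higher and 6 lower. Of all probe sets 49.4% and 51.0% were higher in these comparisons. Higher and lower were 7 and 7 with the combined treatment, 6 and 7 with the shRNA in CSS, and 6 and 8 with CSS in shRNA cells. Several of the probe sets belong to the same gene. In the additive model none of the 13 fitted member probe sets passed an adjusted p of 0.05 for the shRNA, for which 1.66% of probe sets were called higher and 2.06% lower by limma. At an unadjusted p under 0.05 there were 2, IGFBP2 and INSR, where 12.6% of all probe sets lay under it. For CSS the single call was IGFBP5 211959_at, against backgrounds of 1.17% higher and 1.44% lower, and at an unadjusted p under 0.05 there were 2, the other being IGFBP5 203425_s_at, where 12.8% of all probe sets lay under it. Without a trend of the variance no probe set of the whole array passed for either factor.

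**Figure D4:**
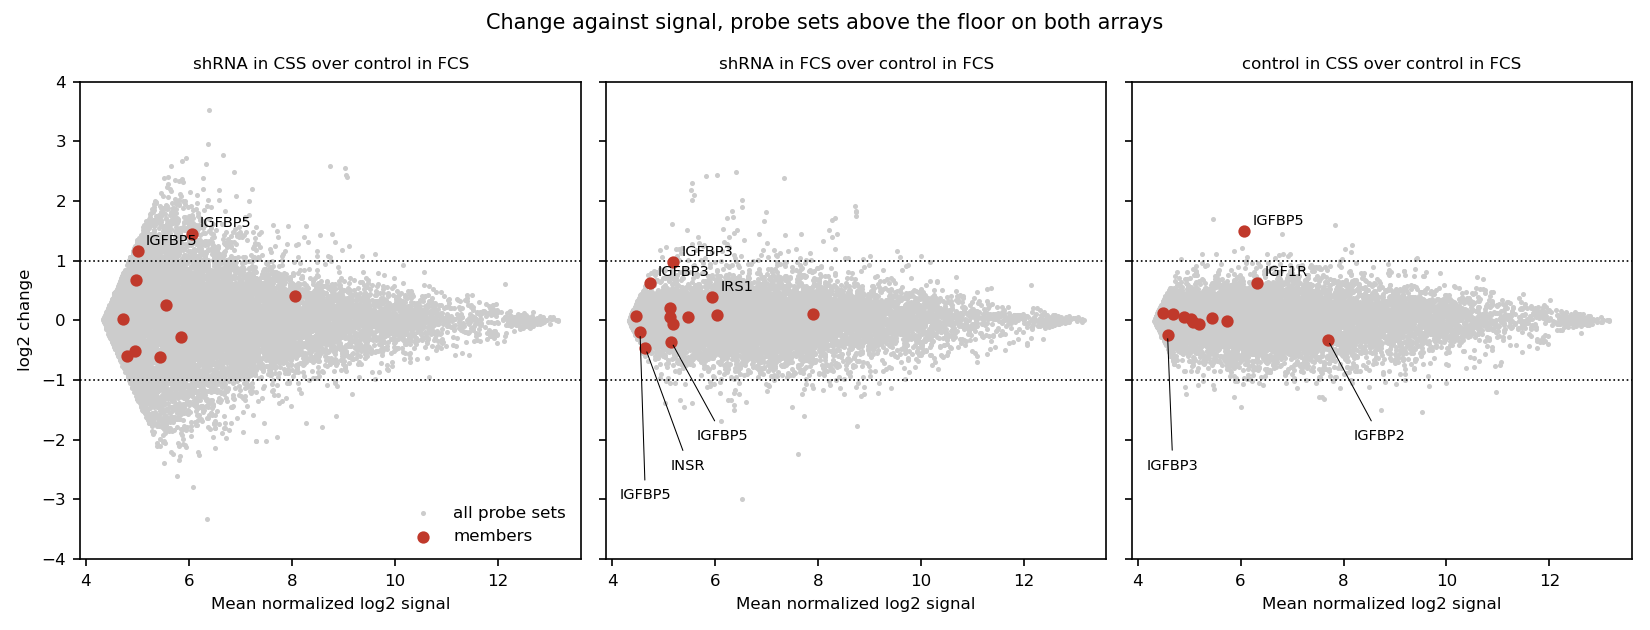
Log2 change (vertical axis) against mean normalized log2 signal (horizontal axis) for all probe sets above the floor on both arrays (grey) and the member probe sets among them (red), for 3 comparisons with the control in FCS; gene names mark members beyond their local spread, and dotted lines mark 2-fold. IGFBP5 211959_at lies at 1.49 with CSS in control cells and IGFBP3 210095_s_at at 0.97 with the shRNA in FCS, and the cloud is widest for the combined treatment.

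Changes with both treatments could be set beside the sum of the single ones for the probe sets above the floor on all 4 arrays. IGFBP5 211959_at came to 1.45 with both treatments and to 1.13 as the sum. IGFBP3 210095_s_at came to 0.020 with both and to 0.74 as the sum, IGF1R 203628_at to -0.29 and 0.72, and IRS1 to -0.62 and 0.37. For these 3 the combined value lay under the sum, by -0.71, -1.01 and -0.99. The local spread of their combined change was 0.50, 0.87 and 1.02. IGFBP2 lay above the sum by 0.63, with a spread of 0.42, and its combined change was -0.041 as deposited. IGF1R 203627_at lay under the sum by -0.39, and IGF2R 201392_s_at above it by 0.16. The other IGFBP5 probe sets disagreed, with 203425_s_at and 211958_at above the sum by 0.97 and 0.77 and 203426_s_at under it by -0.62. All these sums use the control array in FCS more than once, and no test of the departure was possible with 1 array per condition.

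Other genes of the pathway were counted from a list of 48, of which 41 had a probe set annotated to them alone and 38 were kept. With the combined treatment 23 of 34 with a value were higher and 11 lower than in the control in FCS, 5 of them 2-fold or more higher and 1 lower by as much, where over all genes 7.95% were 2-fold higher and 6.91% lower. With the shRNA in FCS 15 of 32 were higher and 17 lower, and with CSS in control cells 21 were higher and 11 lower, none by 2-fold in either, against 0.802% and 0.401% of all genes with the shRNA and 0.163% and 0.138% with CSS. Of all genes 52.5%, 49.9% and 53.2% were higher in these comparisons. The median changes of the list were 0.21, -0.014 and 0.082 in the same order, against 0.029, -2.0e-05 and 0.018 for all genes. In CSS the shRNA gave 20 of 36 higher and 16 lower, where 50.5% of all genes were higher, with 4 and 1 by 2-fold, against 7.77% and 6.73% of all genes, and in shRNA cells CSS gave 22 higher and 14 lower, where 52.0% were higher, with 4 and 0 by 2-fold, against 7.9% and 6.64%. Of the ligands, IGF1 had a log2 signal of 6.02 in shRNA cells in CSS, 5.08 in shRNA cells in FCS, 5.42 in control cells in CSS and 4.81 in control cells in FCS in its brightest probe set, a combined change of 1.20. A second probe set, 211577_s_at, followed with 0.78, while the others, 209541_at and 209540_at, were at the floor on the combined array. 209541_at was above it only in shRNA cells in FCS (4.64) and in control cells in CSS (5.30). 209540_at was above it only in control cells in CSS (4.44). INS and IGFBP1 were not kept, and IGF2 was not analysed here. IGFALS, which stabilizes IGF complexes in serum, was higher by 1.42 with the combined treatment, and IDE, a protease that degrades insulin, was lower by -1.07, with -0.50 and -1.02 in its other probe sets. SOCS3, a feedback inhibitor of cytokine and insulin signaling, had combined changes of 1.11 and of at least 1.10 in its probe sets, and FOXO4, a transcription factor that AKT inhibits, one of 1.22. PDPK1, the kinase that activates AKT, had 1.48 in its brighter probe set and -0.56 in the other. In single treatments the brightest probe sets of these 6 genes differed by between -0.63 and 0.60.

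The patterns nearest to that of IGFBP5 211959_at, by the Euclidean distance of the 3 changes against the control in FCS over 5004 genes, were those of MAGED1 (0.38), CUEDC1 (0.59) and RABAC1 (0.67). MAGED1 differed by 1.40 with the combined treatment, -0.063 with the shRNA in FCS and 1.25 with CSS in control cells. Nearest to IRS1 were ZPR1, HEATR1 and LSG1, each at a distance of 0.11. HEATR1 differed by -0.51 with the combined treatment, 0.39 with the shRNA in FCS and -0.038 with CSS in control cells.

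The cell type label was set against markers. Of 11 luminal prostate markers 8 or 9 were above the floor on each array, among them KLK3, which encodes prostate specific antigen, at 8.37 in shRNA cells in CSS, 8.02 in shRNA cells in FCS, 9.74 in control cells in CSS and 9.00 in control cells in FCS. FOLH1 was not kept, and ACP3 was between 4.32 and 4.45. Stromal cells also make IGFBPs, and of 8 fibroblast markers 4 were above the floor on the combined array, 1 with the shRNA in FCS, 1 in control cells in CSS and 2 in control cells in FCS. Their summed signals, with genes under the floor counted at 20, were 210 on the combined array and 172 to 175 on the others. PDGFRB was at 4.38 on the combined array, close to the floor, and COL3A1, LUM and FAP were not kept on any array. As deposited 35.0% of all probe sets were under 20 on the combined array, and 41.7% to 42.0% on the others. The marker counts are on normalized values, whose distributions quantile normalization makes alike. For 7 leukocyte markers the sums were 222 on the combined array and 147 to 153 on the others. Among them LCP1 had 6.49 in shRNA cells in CSS, 5.03 in shRNA cells in FCS, 4.75 in control cells in CSS and 4.86 in control cells in FCS. CD14 was above the floor on the combined array alone (4.98). CD3E was at the floor on all 4 arrays, and PTPRC, LYZ and CD53 were not kept. The 3 endothelial markers were at the floor or not kept. In control cells the fibroblast sums were 172 in CSS and 175 in FCS, with most of these genes counted at the floor. What part these signals had in the values of IGFBP5 or IGFBP6 on any array was not tested.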

How the data were processed

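Total RNA from 4 cultures of LAPC4 cells was hybridized to Affymetrix U133 arrays, 1 per condition. The deposited values are log2 signals of 22277 probe sets; the authors describe MAS5 signals selected by intensity and present call, then logged and quantile normalized, but the table holds probe sets under 20 and its columns have unequal spreads. Whether the deposited values are MAS5 signals unchanged was not tested, so the floor of 20 is on their scale only. Here the probe sets reaching 20 on any array were kept (15643 besides control probe sets) and quantile normalized, and lower values were raised to 20. Genes were named for 19064 probe sets with 1 annotated gene, symbols being updated through RefSeq gene identifiers; 1043 with several and 2108 with none were named no gene. A change at the floor on 1 array is a bound, and the brightest probe set stood for a gene. The local spread is 1.48 times the median absolute deviation. Main effects came from limma (version 3.58.1, R 4.3.3; additive model, variance trend, two-sided, Benjamini-Hochberg over all probe sets above the floor on at least 2 arrays); limma put the prior degrees of freedom at infinity, and each standard error came from the trend alone. The log2 differences and the limma fit were run on simulated arrays with known changes. These were shRNA changes alike in both sera, placed only in brighter probe sets. All 4 simulated arrays had the noise seen between the control arrays. The simulation therefore does not cover dim members, unequal changes in the 2 sera or the wider spread of the combined array. The members, the pathway and marker lists and the rule for named genes (all members; pathway genes with a 2-fold change; the 3 nearest patterns) were chosen with earlier results of these data known. Alternatives were other normalizations, floors, filters and thresholds and limma without the trend. The number of arrays limits the precision.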

Additional observations from a re-analysis of the deposited data

Results flagged for a closer look

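Among the probe sets above the floor on all 4 arrays, the change with CSS had opposite directions in shRNA cells and in control cells for IGFBP2, with 0.31 in shRNA cells and -0.33 in control cells, and for IGF1R 203628_at, with -0.38 in shRNA cells and 0.63 in control cells. Neither held under every alternative. As deposited IGFBP2 was at -0.15 in shRNA cells and -0.33 in control cells, and with a signal of at least 100 on an array IGF1R was at 0.18 in shRNA cells and 0.77 in control cells. In the same probe sets the change with the shRNA had opposite directions in CSS and in FCS for 4. It was -0.92 in CSS and 0.089 in FCS for IGF1R 203628_at, and -0.60 in CSS and 0.39 in FCS for IRS1. Among the IGFBP5 probe sets it was -0.57 in CSS and 0.054 in FCS for 203426_s_at, and 0.57 in CSS and -0.20 in FCS for 211958_at. With a value at the floor on the combined array, and so as bounds, IGF2R 201393_s_at had -0.73 with the shRNA in CSS and 0.20 in FCS, and -0.91 with CSS in shRNA cells and 0.025 in control cells, and INSR had -0.092 with CSS in shRNA cells and 0.051 in control cells. Each pair rests on 1 array per condition, so that the difference was not tested, and every first value uses the combined array. In none of these pairs did both values exceed their local spread.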

How the results depend on the processing

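Each condition had 1 array and no replicate to leave out. Signals near the floor limit IGFBP3, IGFBP4, IGFBP6, INSR, IRS2 and the IGFBP5 probe sets other than 211959_at most. No paired analysis was possible because each group has a single sample. Of 38 alternative values of the probe set changes of at least 2-fold, all 38 kept their sign and none was reversed, while 6 moved beyond the local spread, all of them for IGFBP5 211959_at with a floor of 100 or with the mean over the probe sets of IGFBP5. For these changes the values without a floor or without a filter equal the main ones. A floor of 100 can shrink a change but cannot turn its sign. Part of the 38 kept signs was thus fixed by the settings. Over all 274 alternative values of single members, which include these settings, 262 kept their sign.

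Counts of member probe sets changed at least 2-fold moved as follows. For the combined treatment against the control in FCS, 2 became 0 with a floor of 100, 1 with a signal of at least 100 on 1 array and 0 at 3-fold. For the shRNA in FCS, 0 became 1, IGFBP3 210095_s_at, with the values as deposited, with a common median, and with quantile normalization without the combined array. For CSS in control cells, 1 became 0 with a floor of 100 and at 3-fold. For the shRNA in CSS, 1 became 3 without a floor (1 higher, 2 lower), and 0 with a floor of 100, with a signal of at least 100 and at 3-fold; as deposited it stayed at 1 but turned direction, IGFBP5 203425_s_at having 0.91 and IGF1R 203628_at -1.28. For CSS in shRNA cells, 3 (2 higher, 1 lower) became 0 with a floor of 100, 1 with a signal of at least 100 and at 3-fold, 2 (1 higher, 1 lower) as deposited, 4 (2 higher, 2 lower) without a floor, and 3 higher with a common median, where IGFBP5 211958_at had 1.10 and IRS1 -0.88. With a floor of 100, 1 member probe set had a value for the shRNA in FCS and 2 in the other comparisons, and 3 with a signal of at least 100. The limma call for CSS, 1 member probe set, became 0 with the values as deposited, with a floor of 100 and without a variance trend. A floor of 100 lies above the FCS signals of IGFBP5 211959_at, 31.3 in shRNA cells and 40.1 in control cells. Its CSS signals were 110 and 113, so its changes with CSS became bounds of 0.13 and 0.17. Without the trend the prior degrees of freedom were 2.84 and no probe set of the array passed. For the values as deposited the cause was not tested. With the values as deposited the median change of all probe sets on the combined array against the control in FCS was -0.16, and 24.3% of its 2-fold changes were higher in place of 49.8%.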
